A study of Arabidopsis thaliana with 12 samples.

Results

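The genes described here are 104 Arabidopsis thaliana genes whose transcripts rose by a moderate amount, in most cases between 2-fold and 4-fold, after 1 h of dehydration in wild-type seedlings and in a WRKY46-overexpressing line. They were taken from 13217 nuclear genes that the annotation used here names by a probe set of their own, of which they make up 0.787%. Another 8794 probe sets of the array had no gene name here and could not be considered. Members were chosen by their measured values: the mean log2 signal of the dehydrated arrays had to exceed that of the control arrays by at least 1 in both lines, by less than 2 in at least 1 line, and had to reach 8 in both dehydrated groups (a linear signal of 256). 111 genes met these numbers, and 7 of them (BGLU40, BZIP60, GH9B8, GH9C2, PTI1-4, PUB22 and WRKY6) were left out by name because the rule leaves out the families those names belong to, along with a few single genes. BZIP60 is among them because the letters bZIP in the rule were read without regard to case, and it would be a member otherwise. All 104 members passed the filter on low signal used for the tests, as did 14495 probe sets in all. Since the choice used both dehydration responses, the members' own responses are given as a description. For members, tests are given for the difference between the lines within a condition, and dehydration tests are given for genes that are not members.

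Seedlings were 1 week old and fell into 4 groups of 3 arrays each, called biological replicates in the labels: untreated wild type of accession Col-0 (WT control), wild type kept for 1 h on filter paper at 22 °C, 60% humidity and in dim light (WT dehydrated), and the same 2 conditions in the line 46T, labelled as overexpressing WRKY46 (46T control and 46T dehydrated). WRKY46 is a transcription factor of the plant WRKY family. The labels give neither the promoter behind the overexpression nor the number of independent lines, so 46T is 1 line here, and the WRKY46 level was not analysed here because no named probe set stands for it. The labels do not say how untreated seedlings were handled, so moving seedlings to paper, the light and water loss cannot be told apart. Each value is a log2 MAS5 signal, a brightness of 1 probe set scaled so that every array has the same trimmed mean, and a log2 difference of 1 is a 2-fold change.

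Seedlings lifted out of their medium begin to lose water within minutes, and the first transcripts to respond include regulators of calcium signalling and defence, enzymes that remodel the cell wall, and enzymes of hormone synthesis. Several of these gene groups are known to answer touch, wounding and cold as well as drying. The plant cell wall is kept extensible by xyloglucan endotransglucosylase/hydrolases (XTH), which cut and rejoin xyloglucan chains, and by expansins, which loosen the wall without cutting it.

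Within groups the arrays correlated at a Spearman coefficient of 0.910 to 0.988 over the tested probe sets, and WT control replicate 1 correlated least with its group, at 0.910 and 0.944. RCA, the Rubisco activase of green tissue, read 14.74 to 15.18 on all 12 arrays, and so stood high in every group. AT4G26010 read 6.77 to 7.84 and FMA, a guard cell regulator, read 5.36 to 7.47, and these were the 3 of 14 chosen tissue markers with a named probe set. Seedlings are mixtures of tissues, so fewer cells of a type and less RNA per cell cannot be told apart. The 3′ minus 5′ log2 difference of the control transcripts for actin, GAPDH and ubiquitin, a measure of how complete the labelled RNA was, lay between 0.88 and 1.00 on the control arrays and between 0.75 and 0.83 on the dehydrated arrays. It moved with the same contrast as the members, and its part in their rise was not tested.

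The 104 members rose by a median of 1.38 on the log2 scale in WT, with a range of 1.00 to 2.36, and by a median of 1.61 in 46T, with a range of 1.02 to 2.85. Their quartiles were 1.19 and 1.74 in WT and 1.34 and 1.91 in 46T. Over all 14495 tested probe sets the medians were -0.02 in WT and -0.08 in 46T. The 46 genes that rose by 2 or more in both lines had medians of 2.62 and 2.97. Of the members, 81 stayed under 2 in both lines, 18 stayed under 2 in WT alone and 5 in 46T alone.

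All 104 members had their 3 WT dehydrated arrays above their 3 WT control arrays, against 13.4% of all tested probe sets, and 103 had the same separation in 46T, against 15.6%. In the limma fit 102 members passed in WT, where 7.29% of all probe sets were called higher, and 101 passed in 46T, where 6.69% were. These counts follow from how the members were chosen and are printed for scale only. The gap between the lowest dehydrated and the highest control array exceeded 0.5 in both lines for 80 members and 1 in both lines for 29. Gaps of these sizes were not counted over all tested probe sets, so these counts too only describe the chosen members. The gap was smallest in WT for ATSPS4F, at 0.10, and it was -0.59 in 46T for AT1G60590, the member whose groups overlapped.

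**Figure D1:**
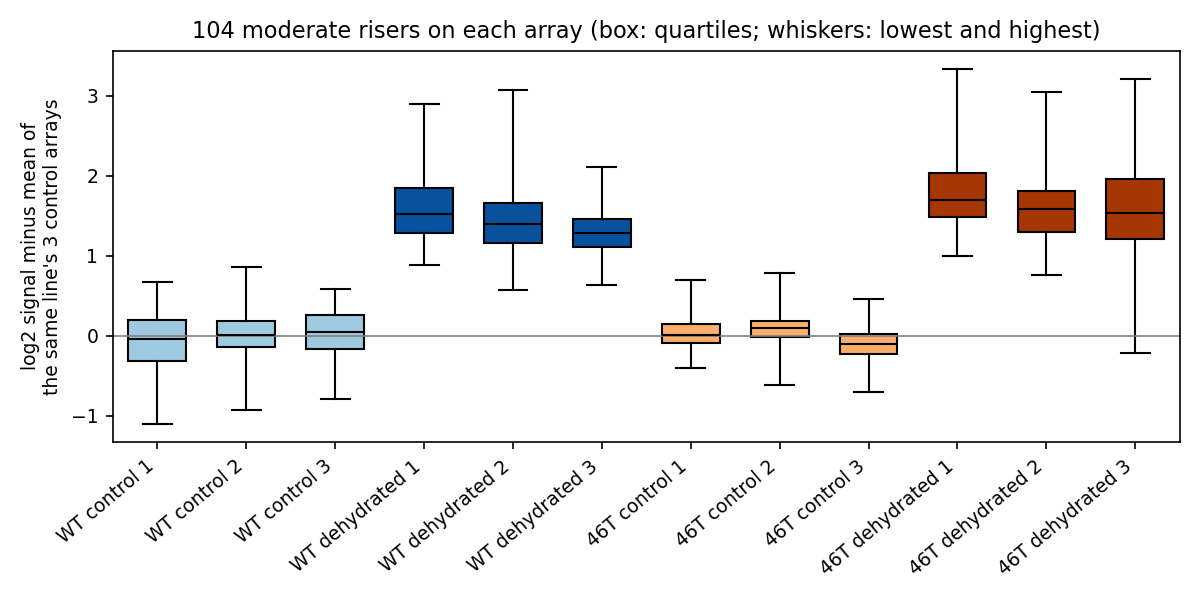
Boxes show, for each of the 12 arrays, the 104 members' log2 signal minus the mean of the same line's 3 control arrays (line: median, box: quartiles, whiskers: lowest and highest member). Medians of the dehydrated arrays lie between 1.28 and 1.70, and among these 6 arrays the lowest whisker belongs to 46T dehydrated replicate 3.

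The rise, which the choice of members required of the group means, was seen on every dehydrated array, with array medians that differed among replicates. These are the arrays used for the choice, so the values describe the members and do not test the rise. Measured from the mean of the line's own controls, the members' median was 1.53, 1.40 and 1.28 on the 3 WT dehydrated arrays and 1.70, 1.58 and 1.53 on the 3 46T dehydrated arrays. WT dehydrated replicate 1 was above its group's mean for 80 of the 104 members, and replicate 3 was above it for 25. The plot of members by array shows this as boxes of unequal height within each dehydrated group, all well above the control boxes. Members' replicate SD had a median of 0.33 in WT control, 0.19 in 46T control, 0.23 in WT dehydrated and 0.18 in 46T dehydrated.

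Members covered most of the upper part of the signal range. Their mean level over the 6 dehydrated arrays ran from 8.11 (AT5G50915) to 13.89 (SRC2), with a median of 9.68, and over the 6 control arrays from 6.41 (AT1G20070) to 12.60 (SRC2), with a median of 8.10. 8 members reached 12 after dehydration, 45 reached 10 and 31 were below 9. 10 members had a control level below 7, where MAS5 signals vary more on the log2 scale. The 5 highest members after dehydration were SRC2 at 13.89, TET8 at 13.38, AT3G56880 at 12.98, AT1G33590 at 12.44 and AT4G27280 at 12.35. A signal depends on the probes as well as on the transcript, so this order does not rank the genes by transcript number.

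11 of the 104 members carry a gene name in the annotation, 9 as a symbol and 2 as a synonym (NPF4.3 for AT1G59740, and FKBP65 or ROF2 for AT5G48570), and the other 93 are known here by locus tag alone and are given no role. The named ones are described first, from the cell wall inward.

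XTH18 and XTH19 are xyloglucan endotransglucosylase/hydrolases and are direct neighbours in the genome. XTH18 (AT4G30280) read 8.50, 7.61 and 8.31 on the WT control arrays and 10.92, 9.23 and 9.89 on the WT dehydrated arrays, and 8.05, 7.77 and 7.69 against 10.68, 10.32 and 11.05 in 46T. The groups were separate in both lines, and WT dehydrated replicate 1 stood above the other WT arrays. Its rise was 1.88 ± 0.35 in WT and 2.85 ± 0.35 in 46T, or 3.68-fold and 7.19-fold, the highest mean rise among the members. Here and below ± is the SE of the fit, with 3 arrays a group. Its spread is estimated from all 4 groups together, so it does not describe the named groups alone. XTH19 (AT4G30290) read 7.63, 7.90 and 7.30 against 9.29, 8.61 and 8.33 in WT, and 7.70, 7.53 and 6.96 against 8.79, 8.52 and 8.62 in 46T. Its groups were also separate, with rises of 1.13 ± 0.26 and 1.25 ± 0.26, so that it rose less than its neighbour in both lines. Probe sets of neighbouring, similar genes can share signal, and how far these 2 do was not tested.

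No other tested XTH gene was called, with the family taken as genes whose symbol or synonym opens with those letters. XTH genes whose probe sets carry no name here could not be looked at. This family and those below were picked after the members were known. Of 10 named XTH genes 6 were tested, and none of the 4 that are not members passed in limma in either line. Their median difference was -0.20 in WT and -0.22 in 46T, from -0.75 ± 0.30 for XTH16 to 0.65 ± 0.33 for XTH32 in WT. XTH32 had the smallest limma adjusted p among them in 46T, at 0.0988 with a difference of 0.91 ± 0.33.

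EXPB3 (AT4G28250), a beta-expansin, read 8.96, 8.52 and 8.47 on the WT control arrays and 10.09, 9.88 and 9.51 on the WT dehydrated ones. In 46T it read 8.12, 7.70 and 7.85 against 9.51, 9.31 and 8.40. Dehydrated arrays were above control arrays in both lines, and no 46T array exceeded the lowest array of the matching WT group. The rises were 1.18 ± 0.26 and 1.19 ± 0.26, nearly equal in size. EXPB1, the only other tested EXPB gene, gave 0.48 ± 0.35 in WT and -0.29 ± 0.35 in 46T and passed in neither line.

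**Figure D2:**
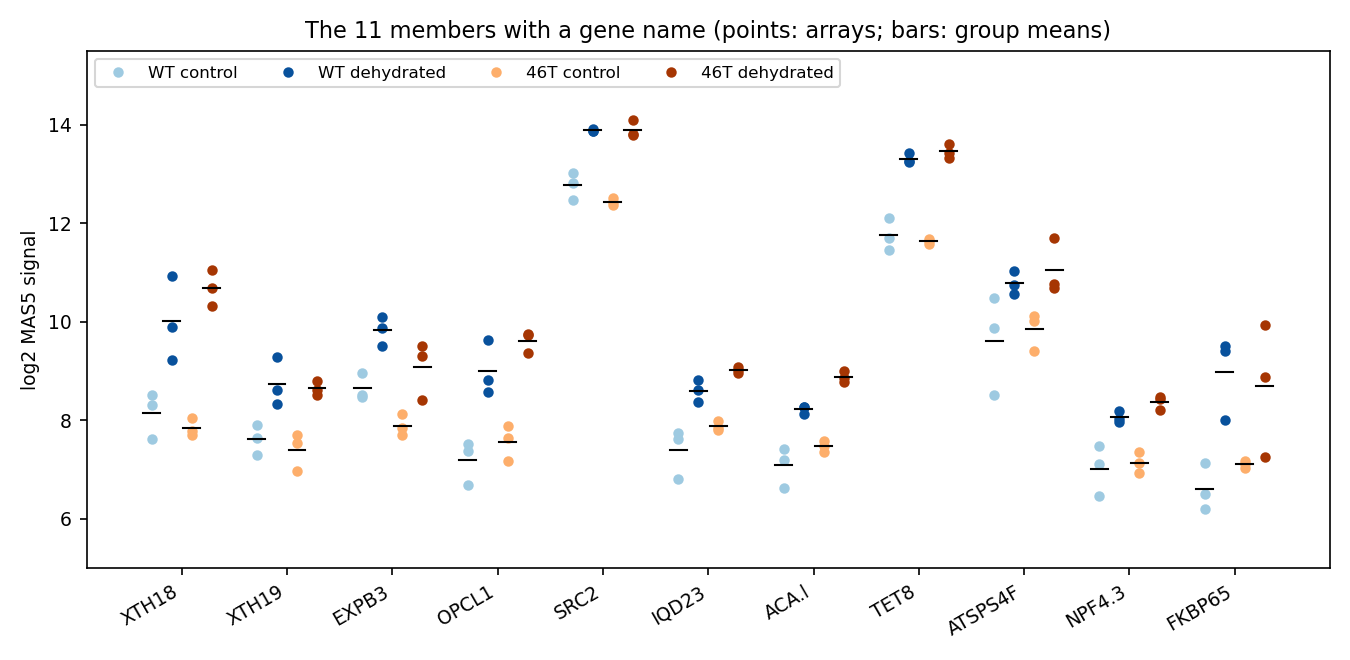
Log2 MAS5 signals of the 11 members with a gene name, with a point for each of the 12 arrays and a black bar for each group mean. Dehydrated points lie above control points for each gene in each line, and AT5G48570 (FKBP65) has the widest spread among its 46T dehydrated arrays, from 7.26 to 9.94.

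OPCL1 (AT1G20510) encodes a CoA ligase that activates a precursor on the way to jasmonate, the wound hormone. It read 6.69, 7.37 and 7.52 in WT controls and 9.63, 8.82 and 8.57 after dehydration, and 7.16, 7.88 and 7.64 against 9.73, 9.37 and 9.74 in 46T. The groups were more than 1 apart in both lines. The rises were 1.81 ± 0.29 and 2.05 ± 0.29, or 3.51-fold and 4.14-fold.

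SRC2 (AT1G09070), named after a cold-regulated soybean gene, and TET8 (AT2G23810), a tetraspanin known from the vesicles that Arabidopsis cells release, were the 2 brightest members. SRC2 read 13.02, 12.47 and 12.81 against 13.88, 13.91 and 13.87 in WT, and 12.37, 12.51 and 12.42 against 13.80, 13.79 and 14.09 in 46T. TET8 read 12.10, 11.70 and 11.45 against 13.26, 13.42 and 13.25 in WT, and 11.58, 11.63 and 11.68 against 13.43, 13.33 and 13.61 in 46T. Neither gene's groups overlapped, and the 6 dehydrated arrays of each lay within 0.5 of one another. SRC2 rose by 1.12 ± 0.14 and 1.46 ± 0.14, and TET8 by 1.56 ± 0.15 and 1.83 ± 0.15, the smallest errors among the named members. Of the 7 other tested TET genes none passed in limma in either line, with median differences of -0.17 and -0.33. The largest of them was TET9, at 2.80 ± 0.99 in WT with a limma adjusted p of 0.0829 and 2.96 ± 0.99 in 46T with an adjusted p of 0.0759.

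IQD23 (AT5G62070) belongs to a family of proteins that bind calmodulin through an IQ motif. It read 7.61, 6.81 and 7.74 against 8.81, 8.62 and 8.36 in WT and 7.80, 7.83 and 7.99 against 9.01, 9.07 and 8.95 in 46T. Both pairs of groups were separate, and the rises were 1.21 ± 0.22 and 1.14 ± 0.22. Of the 10 other tested IQD genes, IQD21 fell in both lines, by 0.79 ± 0.16 in WT (limma adjusted p = 0.00553) and by 1.02 ± 0.16 in 46T (limma adjusted p = 0.000658). IQD22 rose in 46T by 0.66 ± 0.20 with a limma adjusted p of 0.0454, a call that was lost when any of 9 arrays was left out. No other tested IQD gene passed in either line, and none of the 10 exceeded 1 in both.

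ACA.l (AT1G13210) is listed in RefSeq under the synonym autoinhibited Ca2+/ATPase II. Whether that name fits the protein was not checked, so the gene is given no role here. ACA.l read 6.62, 7.42 and 7.20 against 8.26, 8.27 and 8.12 in WT. In 46T it read 7.36, 7.57 and 7.47 against 8.85, 8.77 and 9.0. All dehydrated arrays were above all control arrays, and all 46T dehydrated arrays were above all WT dehydrated ones. It rose by 1.14 ± 0.20 in WT and 1.41 ± 0.20 in 46T.

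ATSPS4F, a sucrose phosphate synthase, and NPF4.3 (AT1G59740), of the nitrate and peptide transporter family, are the 2 named members of metabolism and transport. ATSPS4F read 8.51, 10.47 and 9.87 against 10.57, 11.02 and 10.74 in WT, and 10.02, 10.11 and 9.41 against 11.69, 10.76 and 10.68 in 46T. Its rise was 1.16 ± 0.40 in WT and 1.2 ± 0.40 in 46T. WT control replicate 1 of ATSPS4F was 1.36 or more below the other WT controls, and without it the rise in WT was 0.61. NPF4.3 read 6.46, 7.11 and 7.47 against 8.18, 8.02 and 7.96 in WT, and 7.35, 6.93 and 7.13 against 8.42, 8.47 and 8.20 in 46T, with rises of 1.04 ± 0.23 and 1.22 ± 0.23. Its groups were separate in both lines.

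Of the 5 tested NPF genes that are not members, 3 rose in WT and 2 in 46T, with medians of 0.82 and 0.62. GTR1, a glucosinolate transporter, rose by 2.19 ± 0.27 in WT (limma adjusted p = 0.000100) and by 2.35 ± 0.27 in 46T (limma adjusted p = 3.71e-05). AT2G26690 rose by 0.82 ± 0.16 in WT (limma adjusted p = 0.00562) and by 0.62 ± 0.16 in 46T (limma adjusted p = 0.0268), the latter lost without 1 of 4 of the 46T arrays. AT3G21670 rose by 1.21 ± 0.33 in WT (limma adjusted p = 0.0274), a call lost without WT control replicate 2 or WT dehydrated replicate 1 or 2.

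FKBP65, or ROF2 (AT5G48570), is a peptidyl-prolyl isomerase known to be induced by heat. It read 6.19, 7.13 and 6.50 against 9.50, 9.40 and 8.01 in WT, and 7.17, 7.11 and 7.02 against 9.94, 8.88 and 7.26 in 46T. The groups were separate in both lines, by 0.09 in 46T. With an SD of 1.35 its 46T dehydrated group was the most variable of any member, and its rises were 2.36 ± 0.53 and 1.60 ± 0.53. Without 46T dehydrated replicate 1 the rise of AT5G48570 in 46T was 0.98.

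Among the members without a name, the largest rises belonged to AT1G20070, AT4G36500, AT5G12110 and AT2G26190. AT1G20070 read 6.41, 7.56 and 6.61 against 8.36, 8.78 and 8.65 in WT, and 6.22, 6.06 and 5.59 against 8.68, 9.0 and 8.72 in 46T. Its rise was 1.74 ± 0.28 in WT and 2.84 ± 0.28 in 46T. Its mean over the 6 control arrays was the lowest of any member. In WT controls alone its mean of 6.86 was not the lowest, as AT1G60590 stood at 6.12. AT4G36500 rose by 1.96 ± 0.23 and 2.47 ± 0.23, AT5G12110 by 1.92 ± 0.38 and 2.28 ± 0.38, and AT2G26190 by 1.98 ± 0.18 and 2.11 ± 0.18. None of these 4 had overlapping groups. The next in order of mean rise were AT2G18690, AT1G11960, AT2G41640, AT5G44060, AT1G55450, AT5G66650 and FKBP65, whose mean rises over both lines lay between 1.98 and 2.01.

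The smallest mean rises belonged to AT3G20270 at 1.04, AT1G25390 at 1.10, NPF4.3 at 1.13, AT5G40540 and AT4G28400 at 1.16 each, and AT1G04000 at 1.16. AT5G40540 read 7.25, 7.25 and 6.98 against 8.21, 8.01 and 8.44 in WT, and 7.01, 6.98 and 7.23 against 8.41, 7.97 and 8.59 in 46T. The groups of these smallest risers did not overlap, on the same arrays by which they were chosen. The rise of AT1G25390 in WT was 0.75 without WT control replicate 1, which was its lowest control array.

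Members just inside and just outside the limits had nearly the same values. AT3G20270, at 1.00 in WT and 1.08 in 46T, AT1G60590, at 2.30 and 1.02, and NPF4.3, at 1.04 and 1.22, were the members nearest the lower limit. AT2G28080 at 0.997 in WT, AT3G09830 at 0.996 and AT5G10695 at 0.984 fell just short of it. At the upper limit AT2G41640 (1.98 and 2.01), AT2G26190 (1.98 and 2.11) and AT4G36500 (1.96 and 2.47) were inside, and AT5G15950 (2.48 and 2.02), AT4G27652 (2.02 and 2.31) and AT5G28630 (2.09 and 2.05) were outside.

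3 pairs of members are direct neighbours among protein-coding genes, as a check of the gene order in RefSeq showed: XTH18 with XTH19, AT1G25390 with AT1G25400, and AT1G33590 with AT1G33600. AT1G33590 rose by 1.36 ± 0.19 in WT and 1.58 ± 0.19 in 46T, and AT1G33600 by 1.81 ± 0.21 and 2.04 ± 0.21. AT1G33590 read 10.77, 11.05 and 11.63 against 12.62, 12.26 and 12.65 in WT, and AT1G33600 read 9.18, 9.56 and 10.05 against 11.58, 11.14 and 11.49. On both genes WT control replicate 3 was the highest control array. AT1G25390 rose by 1.15 ± 0.27 and 1.05 ± 0.27, and AT1G25400 by 1.17 ± 0.22 and 1.23 ± 0.22.

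Lists of genes for abscisic acid and dehydration, jasmonate, ethylene, touch and calcium, protein kinase cascades and stress regulators held 76 entries in 9 lists. 4 of them can be matched to a probe set, 3 of those were tested, and none is a member. CML38 and CML37, calmodulin-like calcium sensors, rose by 2.42 ± 0.31 and 3.14 ± 0.69 in WT and by 4.28 ± 0.31 and 4.54 ± 0.69 in 46T, with limma adjusted p-values from 5.88e-07 to 0.00974. STZ, a zinc finger repressor of stress responses, rose by 3.93 ± 0.36 in WT (limma adjusted p = 6.36e-06) and 4.72 ± 0.36 in 46T (limma adjusted p = 9.03e-07). All 3 stood above the highest member in their line, except that CML37, whose control signals were low, rose by 1.60 in WT and 2.47 in 46T with a pseudocount of 32 and by 1.84 and 2.66 with a floor of 5.

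**Figure D3:**
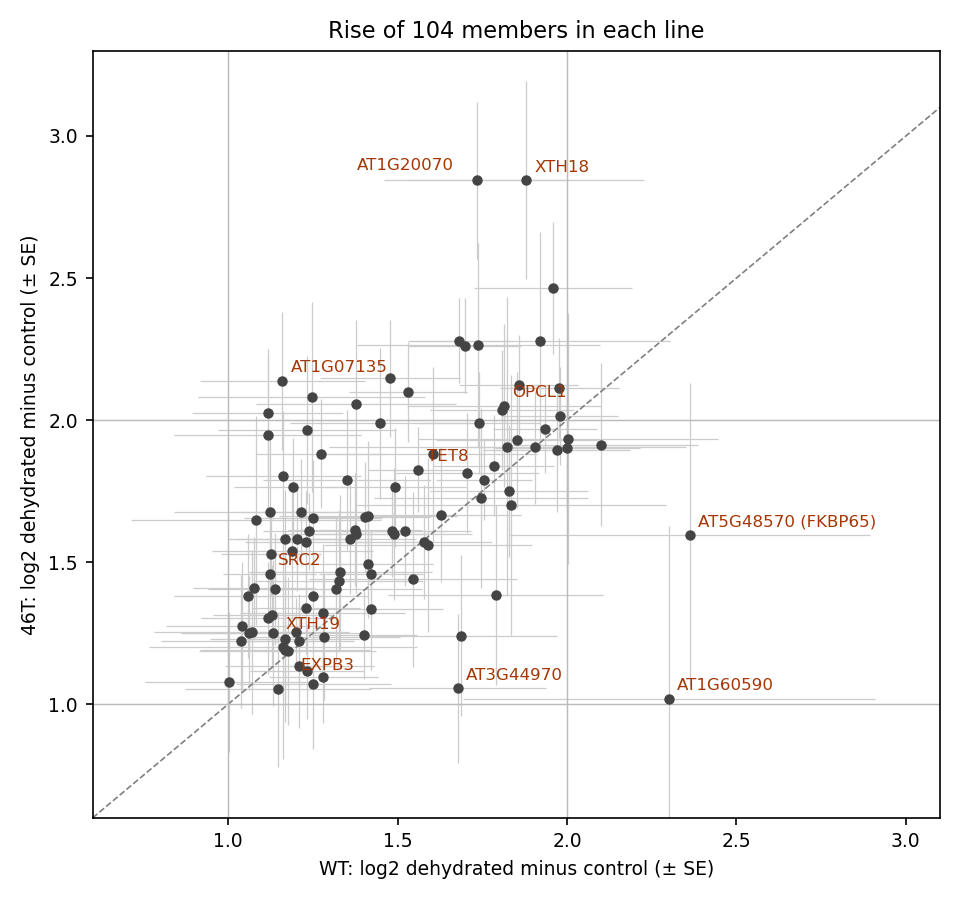
Each point is a member, placed by its log2 dehydrated minus control difference in WT (x) and in 46T (y), with bars of 1 SE. The dashed line marks equal rises and grey lines the limits of 1 and 2. 81 of the 104 points lie above the dashed line.

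The rise in 46T exceeded that in WT for 81 of the 104 members, where 43.1% of all tested probe sets had the larger difference in 46T. The median excess was 0.16 among members, with a middle range of 0.02 to 0.37, 0.29 among the 46 strong risers and -0.05 over all probe sets. Both rises were used to choose the members, so this count is a description. It was 66 without WT dehydrated replicate 3 and 85 without WT dehydrated replicate 1, the lowest and highest values when 1 array was left out. The plot of both rises shows most points near the dashed line: 60 members differed by 0.25 or less between lines, 20 rose by at least 0.5 more in 46T and 3 by at least 0.5 more in WT.

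These genes were picked for the size of that difference. The members with the largest excess in 46T were AT1G20070 (1.11 ± 0.39), AT1G07135 (0.98 ± 0.34), XTH18 (0.97 ± 0.49) and AT5G39580 (0.91 ± 0.32). AT1G07135 read 7.50, 7.99 and 7.41 in WT controls and 7.17, 7.14 and 6.88 in 46T controls, against 8.81, 8.73 and 8.84 in WT and 8.88, 8.90 and 9.84 in 46T after dehydration. Its 46T controls were all below the WT controls and its 46T dehydrated arrays all above the WT ones. The 3 that rose by at least 0.5 more in WT were AT1G60590 (-1.28 ± 0.86), AT5G48570 (-0.77 ± 0.75) and AT3G44970 (-0.62 ± 0.37), given as 46T minus WT. AT1G60590 read 6.36, 5.38 and 6.61 against 8.99, 9.19 and 7.06 in WT, and 7.51, 6.66 and 7.64 against 9.54, 8.29 and 7.05 in 46T. It and AT5G48570 were among the most variable members, and replicate 3 was the lowest dehydrated array in both lines for each. The rise of AT1G60590 in 46T was 0.40 without 46T dehydrated replicate 1 and 1.64 without replicate 3.

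In control seedlings the difference between the lines was tested, and the choice of members did not use it directly. The choice did use both control group means, for each rise, so this comparison is not independent of the choice. The choice also limits how far the dehydrated groups can move from this difference. No member was called in limma at an adjusted p under 0.05, against 0.359% of all tested probe sets. At an unadjusted p under 0.05 there were 21 members, or 20.2%, against 13.7% of all probe sets. Of these members 7 were higher and 14 lower in 46T, and of all probe sets at that p 1348 were higher and 636 lower. The median of the members was -0.06, with 46 above 0 and 58 below, and that of all probe sets was 0.07. With each array centred on its median both medians moved down, to -0.18 and -0.05. No member was called either under quantile normalization, a pseudocount, a floor or with the replicate number as a block, whereas array weights gave 24, leaving out WT control replicate 2 gave 8 and leaving out WT control replicate 3 gave 1.

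AT2G26190 had the smallest adjusted p of the members in control seedlings. It read 8.24, 8.94 and 8.74 in WT and 9.33, 9.38 and 9.37 in 46T, with no overlap, and was 0.72 ± 0.18 higher in 46T with a limma adjusted p of 0.109. Without WT control replicate 2 the adjusted p in limma was 0.0114. AT1G60590 was 1.16 ± 0.61 higher, AT1G63750 was 0.72 ± 0.32 higher, AT5G25930 was 0.66 ± 0.21 higher and AT5G54860 was 0.60 ± 0.19 higher, none of them called. On the other side AT1G53540 was -1.23 ± 0.53, AT1G20070 -0.91 ± 0.28, AT5G12940 -0.79 ± 0.34, AT2G31945 -0.77 ± 0.28 and EXPB3 -0.76 ± 0.26, and their limma adjusted p-values ran from 0.237 to 0.353. AT4G01870, at -0.70 ± 0.18, had the next smallest limma adjusted p after AT2G26190, 0.139. AT1G53540, which read 7.63, 7.68 and 7.96 in WT and 7.02, 6.70 and 5.86 in 46T, was lower on all 3 arrays of 46T. Single WT controls weighed on some of these values: AT1G63750 was 0.31 higher without WT control replicate 1 (0.47 without 46T control replicate 2), AT1G20070 was -0.56 without WT control replicate 2, and AT2G31945 was -0.43 without WT control replicate 1 and -1.16 without replicate 3. With array weights AT1G60590 was 0.71 higher and AT2G31945 was -0.08.

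In dehydrated seedlings no member was called either, against 0.152% of all tested probe sets. The choice of members did not use this difference directly. It did use both dehydrated group means, for the level of 8 and for each rise, so this comparison is not independent of the choice. At an unadjusted p under 0.05 there were 16 members, or 15.4%, against 9.64% of all probe sets. Of these members 14 were higher and 2 lower in 46T, and of all probe sets at that p 859 were higher and 539 lower. The median of the members was 0.12, with 72 above 0 and 32 below, that of the strong risers 0.26 and that of all probe sets 0.03. Centred on array medians, the members' median was 0.04 with 59 above 0, and that of all probe sets was -0.05. With quantile normalization the members' median was 0.12 with 68 above 0, and that of all probe sets was -0.02. The labelling controls added to the RNA before amplification read 8.10 to 8.62 on the WT dehydrated arrays and 7.71 to 7.92 on the 46T dehydrated arrays, so they differed between the same groups. On the control arrays they read 7.78 to 8.85 in WT, the widest range of any group, and 7.76 to 7.94 in 46T. Their part in the line difference of either condition and in the rises was not tested.

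**Figure D4:**
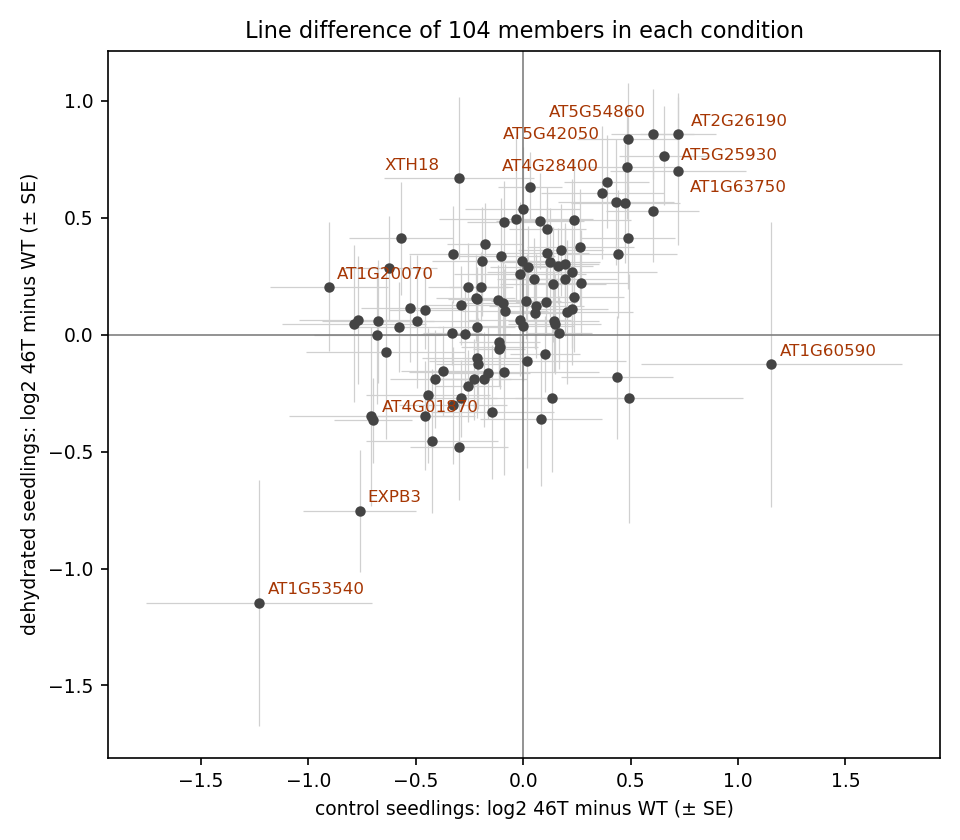
Each point is a member, placed by its log2 difference of 46T over WT in control seedlings (x) and in dehydrated seedlings (y), with bars of 1 SE. AT2G26190, AT5G54860, AT5G25930 and AT1G63750 lie high on both axes and EXPB3 and AT1G53540 low on both. None was called in either condition.

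AT2G26190 again had the smallest adjusted p. It read 10.84, 10.60 and 10.40 in WT and 11.59, 11.41 and 11.43 in 46T after dehydration, without overlap, and was 0.86 ± 0.18 higher in 46T with a limma adjusted p of 0.0833. It passed in 5 of the alternatives (quantile normalization, the 2 groups fitted alone, array weights, and without WT control replicate 1 or 2), with limma adjusted p-values from 0.00212 to 0.0240. AT5G54860 read 8.94, 8.34 and 8.78 in WT and 9.67, 9.54 and 9.42 in 46T, and was 0.86 ± 0.19 higher with a limma adjusted p of 0.133. AT5G42050 was 0.84 ± 0.24 higher, AT5G25930 0.77 ± 0.21 higher and AT4G28400 0.72 ± 0.23 higher, with no overlap between the lines' dehydrated arrays for any of the 3 and limma adjusted p-values from 0.264 to 0.357. AT1G55450 was 0.63 ± 0.15 higher, with a limma adjusted p of 0.172. AT1G55450, AT5G54860, AT5G42050, AT5G25930 and AT4G28400 each passed with array weights and in the 2 groups alone. They also passed without WT control replicate 1, or replicate 2 for AT5G25930. Lower in 46T, without a call, were AT1G53540 at -1.15 ± 0.53, EXPB3 at -0.75 ± 0.26, AT1G04000 at -0.48 ± 0.23, AT5G21100 at -0.46 ± 0.31 and AT4G01870 at -0.37 ± 0.18. Without 46T dehydrated replicate 3 the values were -0.54 for AT1G53540, -0.42 for EXPB3 and -0.08 for AT5G21100. Without 46T dehydrated replicate 1 they were -1.87 for AT1G53540 and -0.81 for AT5G21100, and without WT dehydrated replicate 1 they were -0.30 for AT5G21100 and -0.24 for AT4G01870. AT1G53540 read 8.88, 10.32 and 9.54 in dehydrated WT and 9.87, 8.20 and 7.23 in dehydrated 46T, so the lines overlapped, and its own rise in 46T was 1.91 ± 0.53, or 1.19 without 46T dehydrated replicate 1. The rise of AT2G31945 in WT, 1.12 ± 0.28, was 0.72 without WT control replicate 3.

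The line difference kept its sign across conditions for 64 members, being higher in 46T in both for 39 and lower in both for 25. It was lower in control and higher in dehydrated seedlings for 33 members and the reverse for 7. Of all 14495 probe sets, 6125 were higher in both and 4184 lower in both, while 1826 went from lower to higher and 2360 from higher to lower. The members' small excess of rise in 46T is the same arithmetic, so these counts add nothing independent to it. In the plot of the line difference most members sit within 0.5 of 0 on both axes, and 75 of the 104 do.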

How the data were processed

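Total RNA of 12 seedling samples was hybridized to Affymetrix ATH1 arrays. The deposited table holds log2 signals. The submitters' processing notes name MAS5, with a version not given in the sources used here. On the linear scale every array had a trimmed mean of 500.0 to 500.1, so the table was not normalized again. The 64 control probe sets were left out, and 14495 of the other 22746, kept for exceeding the 40th percentile of signals on 3 or more of the 12 arrays, were fitted with 4 group means in limma 3.58.1 under R 4.3.3 (lmFit, then eBayes with an intensity trend). Two-sided p-values received a Benjamini-Hochberg adjustment over all 14495, with a threshold of 0.05, and errors of differences are SE of this fit. The number of arrays limits the precision.

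Samples were grouped by title. Gene names came from the platform annotation and RefSeq's gene table for TAIR10.1: 13513 name 1 gene, of which 13436 matched, 503 name several and 8794 are unnamed here. 1 probe set was kept a gene, the one with the highest mean of 12 arrays. No table used here holds promoter or protein sequences of these genes, so none are shown.

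The members and the gene lists were chosen with earlier results of these data known. Members named in the text are those with the 12 largest and 6 smallest mean rises, the 5 highest levels, the 5 largest line differences each way in each condition, those with a gene name, and those nearest the limits; others were picked after their values were seen, and so were the families. The fit was tested on simulated data with known changes. The alternatives were quantile normalization, median centring, a pseudocount of 32, a floor of 5, filters, an untrended fit, array weights, the 2 groups alone, the replicate number as a block, and each array left out.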

Additional observations from a re-analysis of the deposited data

How the results depend on the processing

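The members' median rise was 1.31 to 1.45 in WT and 1.57 to 1.65 in 46T when each array was left out in turn, and neither median nor any named gene's rise changed sign under a setting that was run. A level limit of 9 in place of 8 left 68 members, leaving out 1 array gave 93 (without 46T dehydrated replicate 1) to 115 genes meeting the rule, and 66 to 85 members then rose more in 46T.

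Between the lines in control seedlings, 0 members were called, and the count was 24 with array weights and 0 to 8 with 1 array left out (8 without WT control replicate 2, 1 without replicate 3). Of all probe sets 52 were called, 38 higher and 14 lower, against 81 with median centring (40 higher, 41 lower), 71 with quantile normalization (38 higher, 33 lower), 32 with the stricter filter, 14 in the 2 groups alone, 2926 with array weights and 13 to 1640 with 1 array left out, the highest without WT control replicate 2. The members' median of -0.06 became -0.17 with quantile normalization and -0.18 with median centring, and -0.12 to 0.01 with 1 array left out, turning its sign without 46T control replicate 3. Median centring moved the median of all probe sets from 0.07 to -0.05.

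In dehydrated seedlings 0 members were called, against 1 with quantile normalization, 6 in the 2 groups alone, 7 with array weights and 0 to 6 with 1 array left out (6 without WT control replicate 1, 2 without replicate 2). Of all probe sets 22 were called, against 36 with quantile normalization, 43 with the pseudocount, 37 with the floor, 206 in the 2 groups alone, 432 with array weights and 13 to 176 with 1 array left out, the highest without WT control replicate 1. The members' median ran from 0.09 to 0.19 with 1 array left out. The calculation of array weights stopped before it reached its tolerance. Leaving out a control array left the members' median in dehydrated seedlings at 0.12. Such an array enters that comparison only through the spread that the 4 groups share. The cause of the other changes was not tested.

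The labels number the replicates alike in all groups. Deviations of same-numbered arrays correlated at -0.12 to 0.35. Arrays with different numbers were not compared in this way, so these values cannot decide whether the numbers pair the samples. The main fit did not treat them as pairs. With the replicate block 0 members were called in both line comparisons, and 65 and 24 probe sets in control and dehydrated seedlings.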
